A study of Mus musculus with 28 samples.

Results

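The comparison described here asked what the loss of one Pax9 copy does to cells that already lack Pax1. It took 6 of the 28 arrays of the series, 3 of Pax1-/-Pax9+/- cells on chip 1 and 3 of Pax1-/- cells on chip 2, chosen by genotype label and by the barcode series that these 2 chips share, with no use of measured values. Both groups were EGFP-positive (EGFP(+)) cells sorted from vertebral columns of mouse embryos at midgestation (E12.5), of the hybrid strain 129Sv/C57BL/6/129X1/129S1, and each replicate was RNA from the sorted cells of 2 pooled vertebral columns. Pax1-/-Pax9+/- cells carried 2 null Pax1 alleles and 1 null Pax9 allele, while Pax1-/- cells carried 2 null Pax1 alleles and 2 intact Pax9 copies. Every null allele carried EGFP within its disrupted paired-box exon, so the sort took cells in which Pax1-driven or Pax9-driven EGFP was on in Pax1-/-Pax9+/- embryos, but only Pax1-driven EGFP in Pax1-/- embryos. Chip 1 also held 3 arrays of Pax1-/-Pax9-/- cells, which have no intact Pax9 copy, and chip 2 held 2 arrays labelled WT (cells with functional Pax1 joined to EGFP). Another 5 Pax1-/- arrays and the remaining WT, Pax1+/- and EGFP-negative (EGFP(-)) arrays lay on chips 3 to 5, of another barcode series. Since no Pax1-/-Pax9+/- array lay on chip 2 and no Pax1-/- array on chip 1, a difference between the genotypes and a difference between these 2 chips cannot be told apart. The p-values measure the spread between replicate pools, and with sorted cells in bulk, fewer cells of a type and less RNA per cell cannot be told apart.

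Pax1 and Pax9 are paired-box transcription factors of the sclerotome, the ventral part of the somite from which vertebral bodies and intervertebral discs form. In the mouse both are expressed in the condensing mesenchyme of the disc anlage, where they overlap in function, and cartilage matrix genes such as Acan (aggrecan, the large proteoglycan that binds water in disc and cartilage) are expressed as this tissue matures. Immediate early genes such as Fos and Fosb, whose products join Jun proteins to form the AP-1 transcription factor, are transcribed within minutes of growth factor, calcium or stress signals, and tissue dissociation is known to induce them.

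Fosb was the only gene to pass the thresholds of this comparison with all arrays, and its promoter is shown here beside those of Fos and Ccn1, immediate early genes that passed when 1 array was left out. The sequences are RefSeq's (GRCm38.p6), from 250 bases before to 50 bases after the annotated start, read 5′ to 3′ on the gene's strand, and capitals mark the motif TGACG or, on the other strand, CGTCA, the core of the cAMP response element. Fosb lies at chr7:19309996-19310295 on the minus strand, Fos at chr12:85473640-85473939 on the plus strand and Ccn1 at chr3:145649936-145650235 on the minus strand.
Fosb: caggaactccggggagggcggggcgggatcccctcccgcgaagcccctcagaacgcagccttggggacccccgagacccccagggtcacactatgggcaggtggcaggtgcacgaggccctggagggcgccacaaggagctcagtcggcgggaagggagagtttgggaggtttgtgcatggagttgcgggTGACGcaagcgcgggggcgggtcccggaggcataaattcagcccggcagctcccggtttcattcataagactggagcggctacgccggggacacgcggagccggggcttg
Fos: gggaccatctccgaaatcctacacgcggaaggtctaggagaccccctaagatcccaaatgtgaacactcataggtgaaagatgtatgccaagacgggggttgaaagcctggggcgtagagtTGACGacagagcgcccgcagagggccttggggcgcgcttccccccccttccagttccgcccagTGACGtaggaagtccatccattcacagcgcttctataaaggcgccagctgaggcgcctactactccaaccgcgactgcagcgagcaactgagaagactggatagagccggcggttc
Ccn1: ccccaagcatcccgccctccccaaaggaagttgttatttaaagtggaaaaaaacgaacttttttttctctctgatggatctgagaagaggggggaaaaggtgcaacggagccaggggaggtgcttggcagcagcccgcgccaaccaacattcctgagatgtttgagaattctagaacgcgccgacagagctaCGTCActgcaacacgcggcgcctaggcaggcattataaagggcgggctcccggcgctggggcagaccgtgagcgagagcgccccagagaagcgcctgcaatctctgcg

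The Fosb promoter held 1 match, 60 bases before the start, Ccn1 held 1 at 58 bases, and Fos held 2, the nearer at 66 bases. Of 32851 mouse promoters of this length 20.8% held the motif, as did 15 of the 26 matched genes of the immediate early list. A match is a description of the letters only.

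The deposited intensities were background corrected and quantile normalized over all 28 arrays, and a level below is the resulting log2 value, read within a gene and not between genes. Between 42.2% and 44.2% of probes were detected on the arrays of chips 1 and 2, and 10510 genes were detected on at least 3 of the 6 arrays and tested. Pax9, measured by 1 probe, stood at 6.94, 6.61 and 6.58 in Pax1-/-Pax9+/- cells and at 6.61, 6.84 and 6.82 in Pax1-/- cells. The groups overlapped, with a difference of -0.05 (SE 0.46, 95% interval -1.06 to 0.97, adjusted p = 0.969 by limma), so loss of a Pax9 copy was not visible in its signal. This SE pools the spread of all 4 groups of chips 1 and 2, the wide Pax1-/-Pax9-/- group included. In Pax1-/-Pax9-/- cells Pax9 stood at 6.85, 4.73 and 4.77, against 4.34 to 4.60 in EGFP(-) cells. By this probe, Pax1-/-Pax9-/- replicate 1 lay apart from the other arrays of its label and with the other genotypes. For Acan it lay with its group, at 6.98 against 7.12 and 6.59 in replicates 2 and 3. So it did for Sim2 (4.72 against 4.85 and 4.45) and Dpt (4.89 against 4.94 and 4.54), described below. The paper describes the Pax9 transcript as little altered in its compound mutants. Here, without replicate 1, Pax9 differed by -1.96 between Pax1-/-Pax9-/- and Pax1-/-Pax9+/- cells (adjusted p = 0.00385 by limma). With replicate 1 it differed by -1.26 (adjusted p = 0.388 by limma). That array was set aside after its value was seen, which favours the larger difference. The signal of 1 probe does not settle the label of this array, and the label was not tested. Differences of Pax1-/-Pax9-/- from Pax1-/-Pax9+/- cells are given without replicate 1 as well. Pax1, with 2 probes, differed by -0.04 (SE 0.12) and averaged 11.08 ± 0.04 in Pax1-/-Pax9+/- cells and 11.12 ± 0.12 in Pax1-/- cells (SD, n = 3 each), above the 4.71 to 8.57 of EGFP(-) cells, so the sorted cells carried the Pax1 signal and its probes do not check the null label.

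Pax1-/- replicate 3 stood apart from the other Pax1-/- arrays of its chip. Over the tested genes it correlated at 0.968 on average with the Pax1-/-Pax9+/- arrays and at 0.950 with Pax1-/- replicates 2 and 4, which correlated at 0.966 with each other. The 2 WT groups, on chip 2 and on chips 3 to 5, differed in 1539 genes (14.6% of those tested) although their genotype label is the same. On a scale over those genes where 0 is the WT mean of chips 3 to 5 and 1 the WT mean of chip 2, the median gene lay at 0.866, 0.858 and 0.881 in Pax1-/-Pax9+/- replicates 1, 2 and 3. It lay at 0.402, 0.84 and 0.352 in Pax1-/- replicates 2, 3 and 4, and between 0.00838 and 0.0945 in the 5 Pax1-/- arrays of chips 3 to 5. Replicates 2 and 4 of chip 2 therefore lay between the 2 barcode series and replicate 3 lay with chips 1 and 2. The female transcript Xist also told the arrays named replicate 3 on the 2 barcode series apart, at 4.52 on chip 2 against 8.82 on the other. What set these arrays apart was not tested.

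With all 6 arrays, 1 gene was higher (0.00951% of those tested) and 0 genes (0%) were lower in Pax1-/-Pax9+/- than in Pax1-/- cells when the p, adjusted after Benjamini and Hochberg by limma, had to be under 0.05 with a change of at least 1.5-fold. At an unadjusted p under 0.05, 760 genes (7.23%) were higher and 880 (8.37%) lower, and the 3 and 3 arrays did not overlap for 1015 (9.66%) higher and 1020 (9.71%) lower genes, 19.4% in all. Without Pax1-/- replicate 3, 283 genes (2.69%) were higher and 347 (3.30%) lower, whereas leaving out any other single array gave 0 or 1 in each direction. Of those 630 genes (5.99%), replicate 3 lay nearer to the Pax1-/-Pax9+/- mean than to the mean of Pax1-/- replicates 2 and 4 for 518. Choosing the genes without replicate 3 favours such a count, so it is a description only. The same thresholds called 276 of the 630 (43.8%) in the same direction between WT on chip 2 and WT on chips 3 to 5, which is 17.9% of the WT genes called, and 3 in the opposite direction. With 1 genotype on both sides, Pax1-/- on chip 2 and Pax1-/- on chips 3 to 5 differed in 430 genes (4.09%). Pax1-/- and WT cells of chip 2 differed in 3 genes (0.0285%), and in 434 (4.13%) without Pax1-/- replicate 3.

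Fosb rose in Pax1-/-Pax9+/- cells relative to Pax1-/- cells. It stood at 7.94, 7.28 and 7.68 in Pax1-/-Pax9+/- cells and at 5.19, 4.56 and 4.87 in Pax1-/- cells, where it was detected on 1 of 3 arrays. Means were 7.63 ± 0.34 in Pax1-/-Pax9+/- and 4.87 ± 0.31 in Pax1-/- cells (SD, n = 3 each), a difference of 2.76 (SE 0.27, 95% interval 2.17 to 3.35), or 6.78-fold, with an adjusted p of 0.00755 by limma. The adjusted p was 0.0655 without Pax1-/-Pax9+/- replicate 1, 0.0744 without its replicate 3 and 0.0723 without Pax1-/- replicate 4, so each of these ended the call. The barcode series as a fixed block with all Pax1-/- arrays (0.06), floored signals (0.184) and the replicate number as a block (0.178) ended it too. No array overlapped, and Pax1-/- replicate 3, which lay with the other genotype elsewhere, was the lowest of the 6. Along the Pax9 copies, Fosb stood at 8.45, 8.23 and 7.82 with 0 intact copies, again beside the 3 arrays with 1 copy, and only the arrays with 2 copies were low. Both WT arrays of chip 2 were high, however, at 7.91 and 7.13, and the difference between Pax1-/- cells and them was -2.65 (adjusted p = 0.0325). On chips 3 to 5 Fosb was low in every Pax1-/- array (4.57 to 5.47, median 4.71), in Pax1+/- cells (4.42 to 4.50) and in EGFP(-) cells (4.28 to 4.55), and ran from 4.39 to 6.94 in WT cells, with a median of 4.62. Fosb itself was 2.38 higher in WT cells of chip 2 than in WT cells of chips 3 to 5 (adjusted p = 0.00122).

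Fos followed the same order with a wider spread. It stood at 8.87, 8.04 and 8.63 in Pax1-/-Pax9+/- cells and at 5.90, 6.73 and 6.32 in Pax1-/- cells, a difference of 2.20 (SE 0.31, 4.59-fold) that missed the threshold (adjusted p = 0.0601). The arrays of the 2 groups did not overlap, and Pax1-/-Pax9-/- cells were higher still, at 9.92, 9.58 and 9.61. WT cells of chip 2 stood at 8.21 and 7.12, 1 of them within the range of Pax1-/-Pax9+/- cells. Fos passed without Pax1-/- replicate 3, with a difference of 2.40 (adjusted p = 0.0101).

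**Figure D1:**
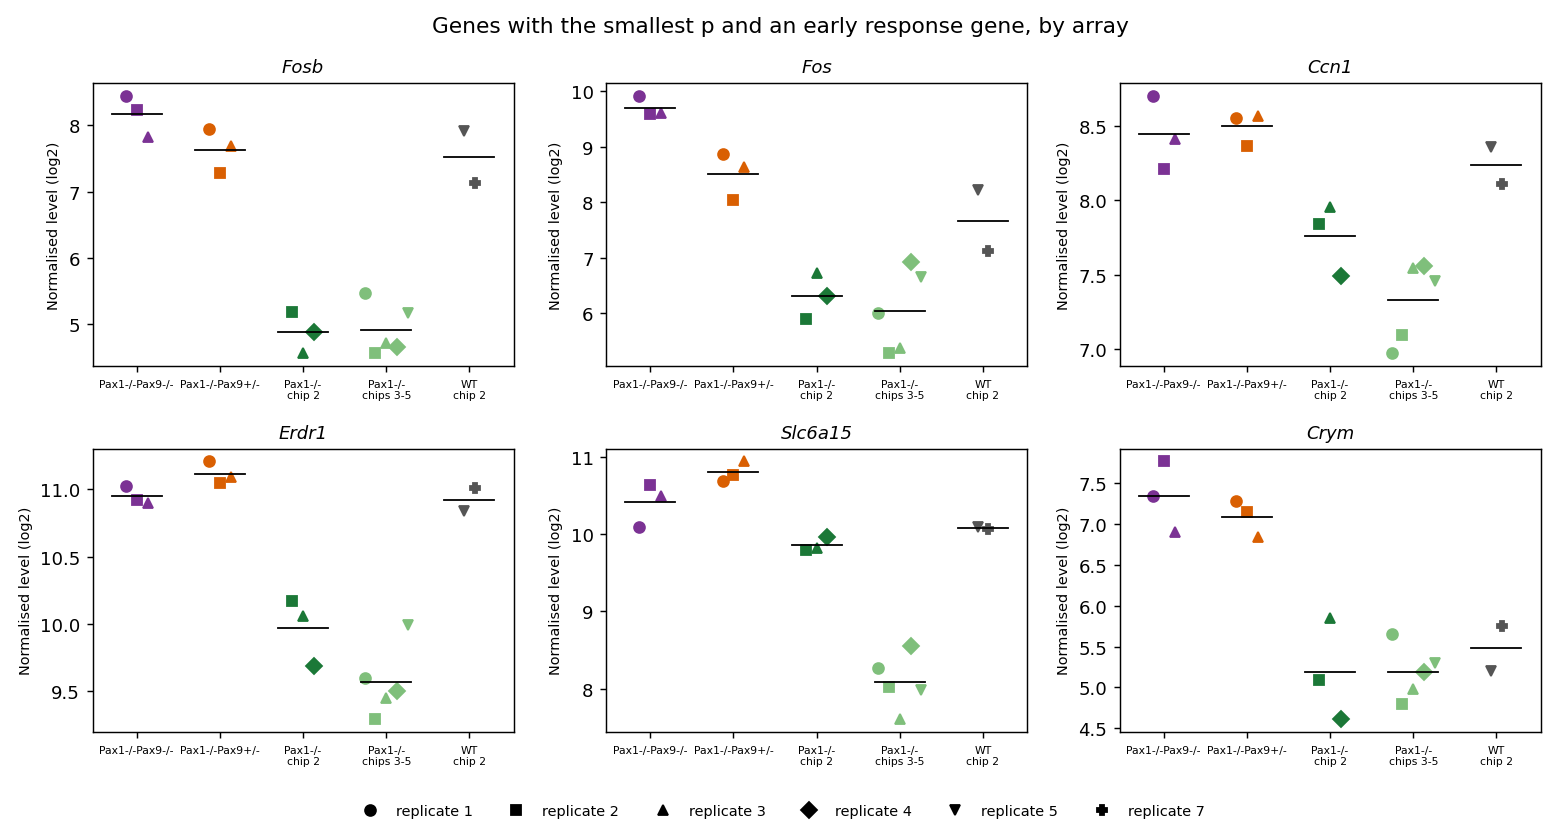
Normalised level (log2) of Fosb, Fos, Ccn1, Erdr1, Slc6a15 and Crym on each array of Pax1-/-Pax9-/-, Pax1-/-Pax9+/- and Pax1-/- cells of chip 2, of Pax1-/- cells of chips 3 to 5 and of WT cells of chip 2. Marker shapes give the replicate, bars the group mean. For all 6 genes the 3 Pax1-/-Pax9+/- arrays sit above the 3 Pax1-/- arrays of chip 2, and for all but Crym the WT arrays sit above them as well.

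Other immediate early genes leaned the same way by smaller amounts. Egr1, a zinc finger transcription factor, stood at 11.55, 11.17 and 11.17 in Pax1-/-Pax9+/- cells and at 10.44, 10.39 and 10.72 in Pax1-/- cells, a difference of 0.78 (SE 0.17, adjusted p = 0.116). Ccn1, a secreted matricellular protein, stood at 8.56, 8.37 and 8.57 in Pax1-/-Pax9+/- cells and at 7.84, 7.95 and 7.49 in Pax1-/- cells, a difference of 0.74 (SE 0.18, adjusted p = 0.138). The differences were 0.62 for Klf6, 0.98 for Egr3, 0.37 for Fosl2 and 0.26 for Jun, none past the threshold. WT cells of chip 2 lay above the Pax1-/- arrays of that chip for Egr1 (11.04 and 11.06) and Ccn1 (8.11 and 8.36). They overlapped them for Klf6 (8.59 and 8.87) and Jun (10.44 and 10.48). For Egr3 (4.53 and 4.82) and Fosl2 (7.43 and 7.49) they lay below. Of the 32 listed immediate early and dissociation response genes 24 were measured, and their median difference was 0.23, against 0.01 over all genes tested. By the unadjusted p, 7 of the 24 were higher and 0 lower, against 7.23% and 8.37% of all genes, and Egr2 (-0.53) and Ier3 (-0.41) leaned the other way. Without Pax1-/- replicate 3, 4 of the 24 rose (16.7%, against 2.69% of all genes). Between the 2 WT groups the list had a median of 0.06, with 2 of the 24 called higher on chip 2 and 1 lower. The 2 higher genes were Fosb and Ccn1 (0.59, adjusted p = 0.0363 by limma), which are among those that rose here.

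The genes next to Fosb by p were named by a rule of the 10 smallest in each direction. Their arrays did not overlap, as for 19.4% of all genes tested, and their adjusted p-values by limma were 0.0601 to 0.104 with all 6 arrays. Each of them passed once Pax1-/- replicate 3 was left out, as did 5.99% of all genes. Choosing genes by the smallest p favours both, so these are descriptions only. Those not detected on any array of 1 group entered the test only through detection on all 3 arrays of the other group. Where a gene was not detected on any array of a group, only a bound is given: the mean of the detected group over that of the other group, with each of its arrays raised to the lowest detected signal where it lay below. Crym, a thyroid hormone binding protein, stood at 7.29, 7.15 and 6.84 in Pax1-/-Pax9+/- cells and at 5.09, 5.85 and 4.61 in Pax1-/- cells, a difference of 1.91 (SE 0.32, adjusted p = 0.104), detected on 1 of 3 arrays in Pax1-/- cells. Its level was also high on the other arrays of chip 1, at 6.90 to 7.77 in Pax1-/-Pax9-/- cells, and low in both WT arrays of chip 2 (5.20 and 5.75). Crym thus separated the 2 chips as fully as it separated the genotypes.

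Slc6a15, a neutral amino acid transporter, stood at 10.69, 10.77 and 10.95 in Pax1-/-Pax9+/- cells and at 9.80, 9.83 and 9.97 in Pax1-/- cells, with a difference of 0.94 (SE 0.16, adjusted p = 0.104). Its 5 Pax1-/- arrays of chips 3 to 5 lay lower again, between 7.60 and 8.55. Erdr1 differed by 1.15 (SE 0.15, adjusted p = 0.0601), at 11.21, 11.05 and 11.09 in Pax1-/-Pax9+/- cells and 10.17, 10.05 and 9.69 in Pax1-/- cells, and its 2 probes gave 1.53 and 0.76. Erdr1 lies in the pseudoautosomal region in several copies, so its value is uncertain. C3ar1, the receptor of the complement fragment C3a, was 1.20 higher in Pax1-/-Pax9+/- cells (adjusted p = 0.0775). The proton-gated channel gene Asic3 was at least 1.99-fold higher in Pax1-/-Pax9+/- cells, the synaptic vesicle protein gene Syt1 at least 1.33-fold, Ripor3 at least 1.45-fold and the ankyrin repeat gene Anks1b at least 1.32-fold, all 4 undetected in Pax1-/- cells.

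On the lower side, Edaradd, the adaptor of the ectodysplasin receptor, stood at 5.41, 4.60 and 4.60 in Pax1-/-Pax9+/- cells and at 6.60, 6.46 and 7.11 in Pax1-/- cells, a difference of -1.85 (SE 0.31, adjusted p = 0.104), detected on 1 of 3 arrays in Pax1-/-Pax9+/- cells. Efl1, a GTPase of ribosome maturation, differed by -1.27 (adjusted p = 0.0775), detected on 2 of 3 there. The ETS factor gene Etv1 differed by -0.97, but 1 of its 3 probes gave 0.00 and the others -1.53 and -1.39. Mrpl12 of the mitochondrial ribosome differed by -1.06, Eif3d of translation initiation by -0.72 and Pomp, which assembles the proteasome, by -0.80. Undetected in Pax1-/-Pax9+/- cells were Mcts2 (at least 1.90-fold lower, a retrogene whose probe may also read its parent Mcts1), Dera (at least 1.63-fold), Krt18 (at least 1.59-fold), a keratin of simple epithelia, and Ranbp6 (at least 1.36-fold). Of the 20 genes so named, 7 were also called in the same direction between the 2 WT groups (Fosb, Erdr1, Slc6a15, Mcts2, Etv1, Mrpl12 and Eif3d) and 0 in the opposite one, where 14.6% of all genes were called.

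**Figure D2:**
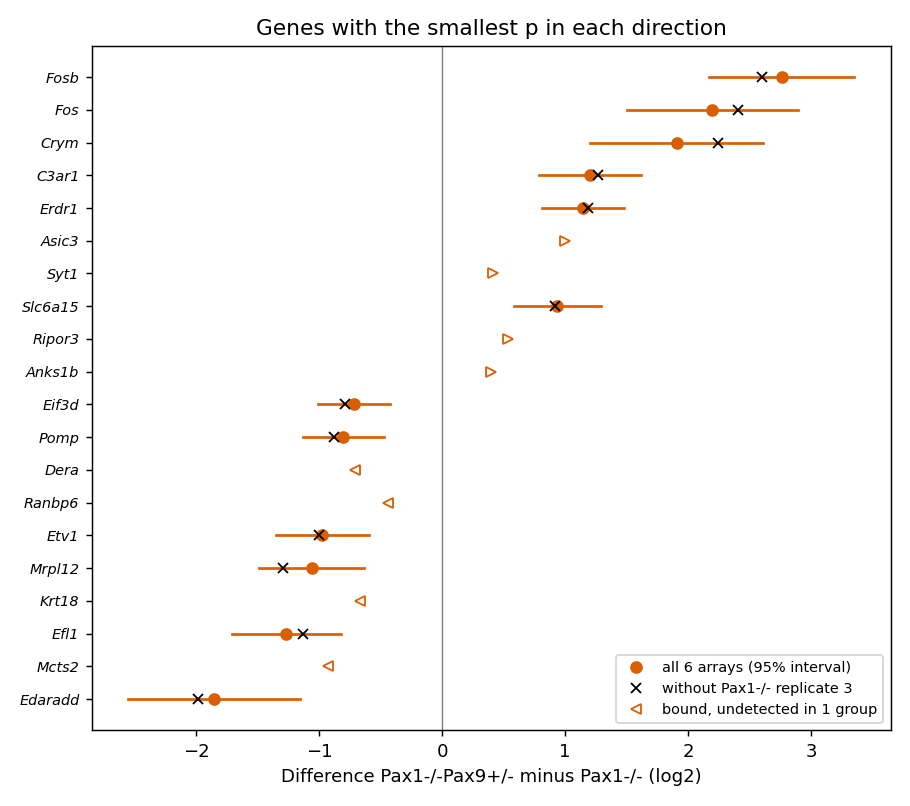
Difference between Pax1-/-Pax9+/- and Pax1-/- cells (log2) of the 20 genes with the smallest p in each direction, with all 6 arrays (circles, bars the 95% interval) and without Pax1-/- replicate 3 (crosses). Open triangles give only the bound for the 8 genes undetected in a whole group. Fosb lies at 2.76 with all arrays and 2.60 without replicate 3, and for all 12 genes with an interval, Fosb included, the cross lies inside it. Crosses and circles share arrays, which favours this, so it is a description only.

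Genes of the respiratory chain, of both ribosomes and of the proteasome leaned lower in Pax1-/-Pax9+/- cells. The median differences were -0.30 over 35 measured genes of complex I, -0.24 over 22 of complexes II to IV, -0.28 over 16 of the ATP synthase, -0.29 over 71 of the mitochondrial ribosome, -0.28 over 54 of the cytosolic ribosome and -0.33 over 28 of the proteasome. With all 6 arrays 0 of these genes passed. By the unadjusted p, 16 of 35 complex I genes were lower and 1 higher, and 13 of 28 proteasome genes were lower and 0 higher, against 8.37% of all genes lower. Without Pax1-/- replicate 3, 9 complex I genes fell, as did 4 of complexes II to IV, 6 of the ATP synthase, 11 of each ribosome and 6 of the proteasome, against 3.30% of all genes, and 1 gene of each ribosome rose.

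In each of these lists Pax1-/- replicates 2 and 4 lay highest of the 6 arrays. Uqcrh, a subunit of complex III, stood at 9.70, 9.59 and 9.63 in Pax1-/-Pax9+/- cells and at 10.99, 9.87 and 11.07 in Pax1-/- replicates 2, 3 and 4, a difference of -1.0 (SE 0.27, adjusted p = 0.166). It ran from 11.50 to 11.82 in Pax1-/- cells of chips 3 to 5 and stood at 9.68 and 9.71 in WT cells of chip 2, against 11.36 to 11.62 in WT cells of chips 3 to 5. Cox6b1 of complex IV stood at 9.48, 9.68 and 9.27 in Pax1-/-Pax9+/- cells and at 10.76, 9.66 and 10.86 in Pax1-/- cells. In both genes replicate 3 lay near the arrays of the other genotype and replicates 2 and 4 lay toward those of the other barcode series. Sh3bgrl3, a small thioredoxin-like protein gene, showed the same split, at 7.95, 7.75 and 7.57 in Pax1-/-Pax9+/- cells and 9.66, 7.76 and 10.04 in Pax1-/- cells. Every array of chips 3 to 5, of any genotype, lay between 9.75 and 10.17, and the WT and Pax1-/-Pax9-/- arrays of chips 1 and 2 between 7.80 and 8.23. Ndufs6 of complex I differed from this, with all 3 Pax1-/- arrays close together (8.30, 8.43 and 8.32 in Pax1-/-Pax9+/- cells, 9.11, 8.91 and 8.98 in Pax1-/- cells), a difference of -0.65 (SE 0.12, adjusted p = 0.104). The same lists were also lower in WT cells of chip 2 than in WT cells of chips 3 to 5, where the median of all genes was 0.03. The medians there were -0.31 for complex I (7 of 35 genes called lower), -0.17 for complexes II to IV, -0.20 for the ATP synthase, -0.33 for the mitochondrial ribosome (17 of 71 called lower), -0.16 for the cytosolic ribosome and -0.24 for the proteasome (6 of 28 called lower).

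**Figure D3:**
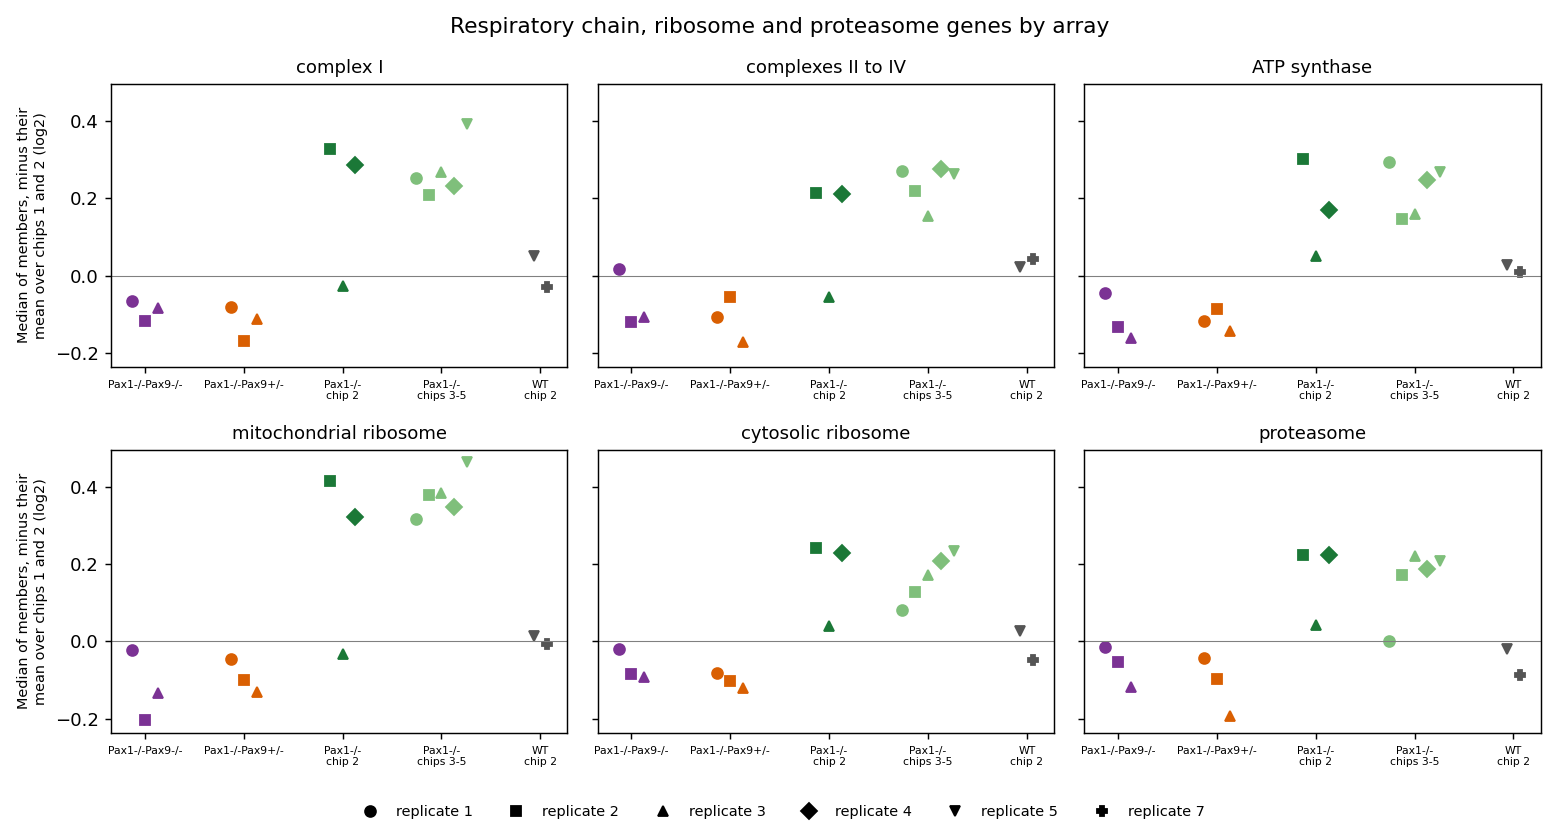
Level of 6 gene lists on each array (median over the measured members after subtracting each member's mean over the 11 arrays of chips 1 and 2, log2), with a marker shape for each replicate. For complex I the Pax1-/-Pax9+/- arrays lie at -0.08, -0.17 and -0.11, and Pax1-/- replicates 2 and 4 (0.33 and 0.29) lie apart from replicate 3 (-0.03).

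Cartilage genes leaned higher, and their order along the Pax9 copies was not even. Acan stood at 9.43, 9.39 and 9.19 in Pax1-/-Pax9+/- cells and at 8.49, 8.36 and 8.26 in Pax1-/- cells, with no overlap and close replicates. The difference was 0.97 (SE 0.17, adjusted p = 0.104 with all arrays, and 0.0277 without Pax1-/- replicate 3). With 0 intact Pax9 copies Acan fell to 6.98, 7.12 and 6.59, a difference of -2.44 from the cells with 1 copy (adjusted p = 0.000229). Of all genes 0.219% were called at this step, 23 with all arrays and 17 without the Pax1-/-Pax9-/- array of replicate 1, Acan among them (-2.48). The step that loses the first copy and the step that loses the last differed by 3.41 (SE 0.30, adjusted p = 0.00337, and 3.45 with 0.0148 without Pax1-/-Pax9-/- replicate 1), and they share the Pax1-/-Pax9+/- arrays. WT cells of chip 2 stood at 9.78 and 9.38, and Pax1-/- cells of chips 3 to 5 ran from 6.87 to 8.13. Acan differed by 1.43 between the 2 WT groups (adjusted p = 0.0176).

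Of 45 listed cartilage genes 24 were measured, with a median difference of 0.21 between Pax1-/-Pax9+/- and Pax1-/- cells and of -0.67 between Pax1-/-Pax9-/- and Pax1-/-Pax9+/- cells (-0.68 without Pax1-/-Pax9-/- replicate 1). For the first step 6 of the 24 were higher and 0 lower by the unadjusted p, against 7.23% and 8.37% of all genes. Without Pax1-/- replicate 3 Acan, Matn4 (1.14, a matrilin of cartilage matrix) and Col9a1 (0.94, a chain of the collagen that coats cartilage fibrils) rose, 3 of 24 against 2.69% of all genes. The same 3 genes were called higher in WT cells of chip 2 than in WT cells of chips 3 to 5, where the list had a median of 0.29, with 6 of 24 called higher and 0 lower. With all 6 arrays the probes of Col9a1 gave 0.30 and 1.15, the brighter probe the smaller difference, and those of Matn4 0.54 and 1.23. Col2a1, the main cartilage collagen, differed by -0.18 (SE 0.17), its 3 probes giving 0.04, -0.20 and -0.38. Sox9, Sox5 and Sox6, the transcription factors that drive cartilage differentiation, differed by 0.04, 0.19 and 0.64, none past the threshold. Single probes of Sox5 ran from -0.27 to 0.56.

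Other genes that fell with the last Pax9 copy did not pass at the first. Sim2, a bHLH-PAS transcription factor, stood at 7.26, 7.12 and 7.39 in Pax1-/-Pax9+/- cells and at 7.91, 7.87 and 7.81 in Pax1-/- cells, a difference of -0.60 (SE 0.20, adjusted p = 0.213), and fell by 2.58 at the last copy (adjusted p = 0.000229). Dpt, a matrix protein that binds collagen, differed by -0.16 at the first and fell by 2.21 at the last copy (adjusted p = 0.00177). Mia, a secreted cartilage protein, differed by 0.42 at the first and fell by 1.52 at the last copy (adjusted p = 0.00196). All 3 kept the call at the last copy, where both genotypes lie on chip 1, without the Pax1-/-Pax9-/- array of replicate 1. A list of 23 genes was drawn from the study's account of Pax dosage and of the Sox and growth factor pathways, with results on these samples known, so it is not independent evidence: 0 of the 23 passed at the first copy, with a median of -0.08 that took either sign over the alternatives, and 5 fell at the last (3 without the Pax1-/-Pax9-/- array of replicate 1). When Pax1-/- replicate 3 was left out, Hip1 (-1.0) and the Polycomb gene Cbx2 (-0.84) fell and Acan rose at the first copy. Hip1 was also lower in WT cells of chip 2 than in WT cells of chips 3 to 5 (-1.23, adjusted p = 0.000475), while Cbx2 did not pass there (-0.60, adjusted p = 0.056).

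The 2 steps differed from each other in 7 genes (0.0666% of those tested), only the first crossing chips. Besides Acan, Mia, Asic3, Syt1 and Dera, these were the cadherin gene Cdh8, which differed by -0.43 at the first copy and rose by 2.26 at the last (2.26 without Pax1-/-Pax9-/- replicate 1), and Cadps, a protein of vesicle release, which differed by -1.21 and rose by 1.52 (adjusted p = 0.0233, and 0.0814 without Pax1-/-Pax9-/- replicate 1). Without that array Acan alone passed the test of the 2 steps.

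**Figure D4:**
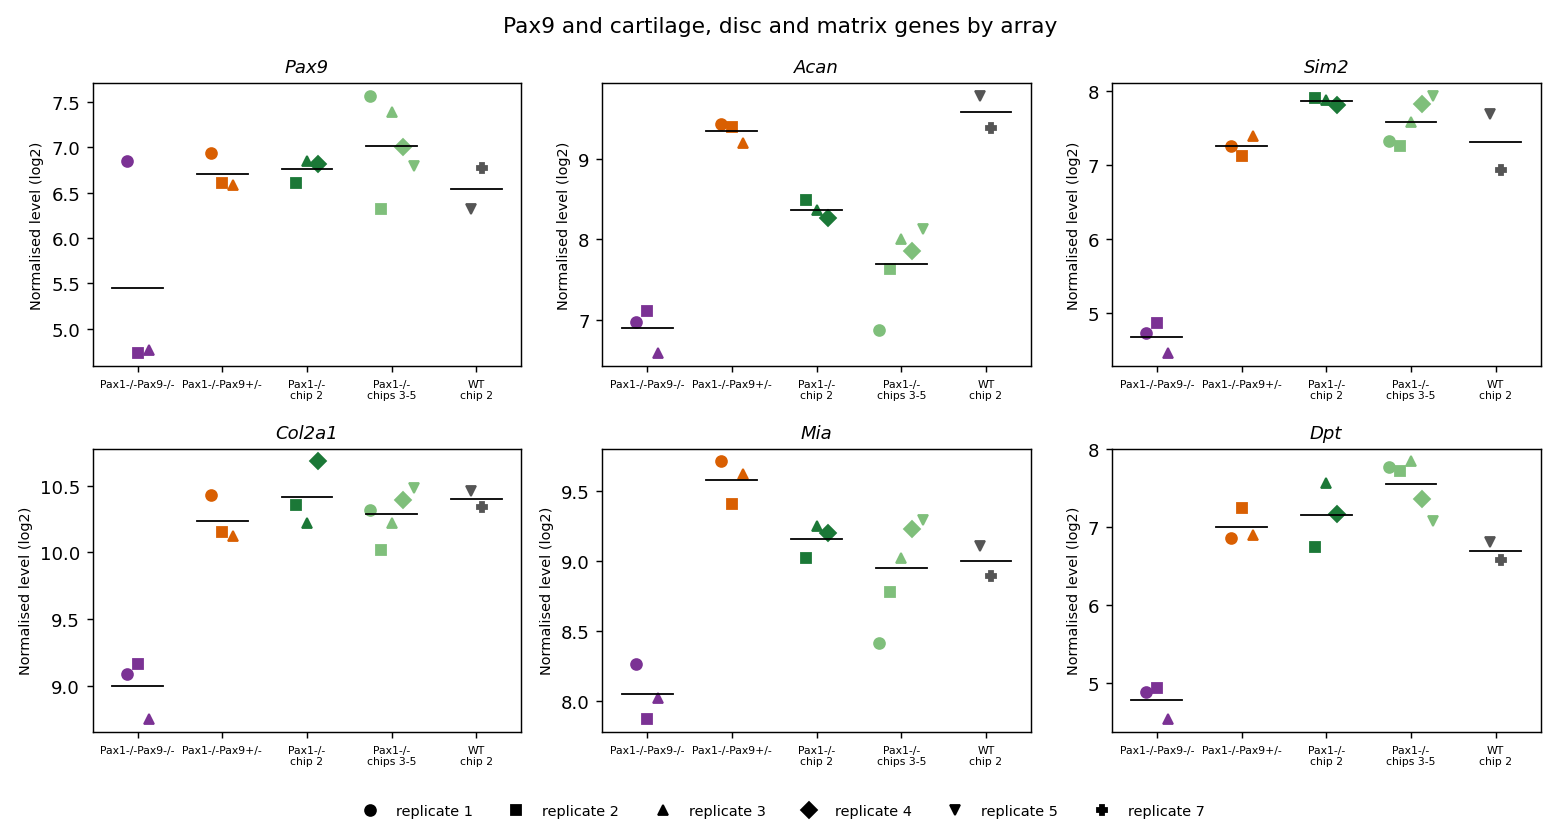
Normalised level (log2) of Pax9, Acan, Sim2, Col2a1, Mia and Dpt on each array by intact Pax9 copies (Pax1-/-Pax9-/-, Pax1-/-Pax9+/- and Pax1-/- of chip 2), with Pax1-/- arrays of chips 3 to 5 and WT arrays of chip 2; marker shapes give the replicate, bars the mean. The Pax1-/-Pax9-/- arrays lie lowest for Acan, Sim2, Col2a1, Mia and Dpt, and for Pax9 its replicate 1 (6.85) lies with the other genotypes.

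Transcription factors of the sclerotome and paraxial mesoderm had a median difference of 0.13 over 30 measured genes, with 5 higher and 1 lower by the unadjusted p, against 7.23% and 8.37% of all genes. Zic2, a zinc finger factor, stood at 7.78, 7.53 and 7.60 in Pax1-/-Pax9+/- cells and at 6.26, 6.80 and 6.99 in Pax1-/- cells, a difference of 0.95 (SE 0.19, adjusted p = 0.109), and lay at 7.39 to 7.40 in WT cells of chip 2. The forkhead genes Foxc1 and Foxc2 differed by 0.75 and 0.29, Ebf1 by 0.53 and Nr2f2 by 0.46. Without Pax1-/- replicate 3, Zic2 (1.01) and Foxc1 (1.09) rose, 2 of 30 against 2.69% of all genes. The list's median between the 2 WT groups was -0.06, and both genes were also called higher in WT cells of chip 2 than in WT cells of chips 3 to 5. Bmp4, a bone morphogenetic protein, differed by -0.60 (adjusted p = 0.232).

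Bone and growth factor genes showed values in both directions. Of 17 osteoblast and perichondrium genes 5 were measured, with a median of 0.81: Phex, a peptidase of phosphate balance (1.12), Dlx5 (0.83), Sp7, the osteoblast factor osterix (0.81), Pth1r (0.24) and Dlx3 (-0.42). Phex stood at 7.58, 7.64 and 7.52 in Pax1-/-Pax9+/- cells and at 6.29, 7.27 and 5.82 in Pax1-/- cells, and it alone of the 5 passed without Pax1-/- replicate 3 (1.53, adjusted p = 0.0151). In the insulin-like growth factor axis 18 of 22 genes were measured, with a median of 0.03. The docking protein gene Irs1 differed by 0.73, the binding protein gene Igfbp2 by 0.57 and the clearance receptor gene Igf2r by 0.49, while the ligand gene Igf2 stood at 11.53, 11.73 and 11.60 in Pax1-/-Pax9+/- cells and at 12.30, 11.58 and 12.44 in Pax1-/- cells, a difference of -0.48. Igf2 showed the same order of the Pax1-/- replicates as Uqcrh. Without replicate 3, Irs1, Igfbp2 and Igf2r rose, 3 of the 18 measured genes against 2.69% of all genes. Igf2 fell, 1 of the 18 against 3.30% of all genes. These 4 genes were named after their values were seen. With replicate 3 included, the probes of Igf2r gave 0.14 and 0.84, the brighter probe the smaller difference. Igf2 was also lower in WT cells of chip 2 than in WT cells of chips 3 to 5 (-0.93, adjusted p = 0.000435). Col16a1, a fibril-associated collagen, was 1.16 higher (SE 0.25, adjusted p = 0.115).

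Of the markers of other cell types 0 passed with all arrays, and their medians had both signs. Of 31 skeletal muscle markers 12 were measured, with a median of -0.38, and their summed linear signal ran from 1019 to 1303 in Pax1-/-Pax9+/- cells and from 1421 to 1941 in Pax1-/- cells. The defining markers Myod1, Myf6, Pax3, Pax7, Des and Ckm were undetected on all 6 arrays, and the contractile genes Tnnt1 (-0.92) and Mylpf (-1.24) did not pass with all arrays and fell without Pax1-/- replicate 3 (-0.86 and -1.77). These were 2 of the 12 measured markers, against 3.30% of all genes lower. Mylpf was also lower in WT cells of chip 2 than in WT cells of chips 3 to 5 (-1.67, adjusted p = 0.00745), where the muscle list had a median of -0.42. Of 27 endothelial markers 16 were measured, with a median of -0.34 and sums of 1184 to 1574 in Pax1-/-Pax9+/- and 1265 to 2069 in Pax1-/- cells, with Cdh5, Tie1, Sox18 and Eng undetected. Macrophage and granulocyte markers, 15 of 28 measured, had a median of 0.49 and sums of 752 to 1649 in Pax1-/-Pax9+/- and 841 to 957 in Pax1-/- cells, against 8986 to 10841 in EGFP(-) cells. Tyrobp and Ptprc were undetected on all 6 arrays, while C1qa, a complement subunit of macrophages, was at least 1.73-fold higher in Pax1-/-Pax9+/- cells, undetected in Pax1-/- cells and not past the threshold (adjusted p = 0.225). C3ar1, named above, belongs with these markers in function, and the part of such cells in its difference was not tested.

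**Figure D5:**
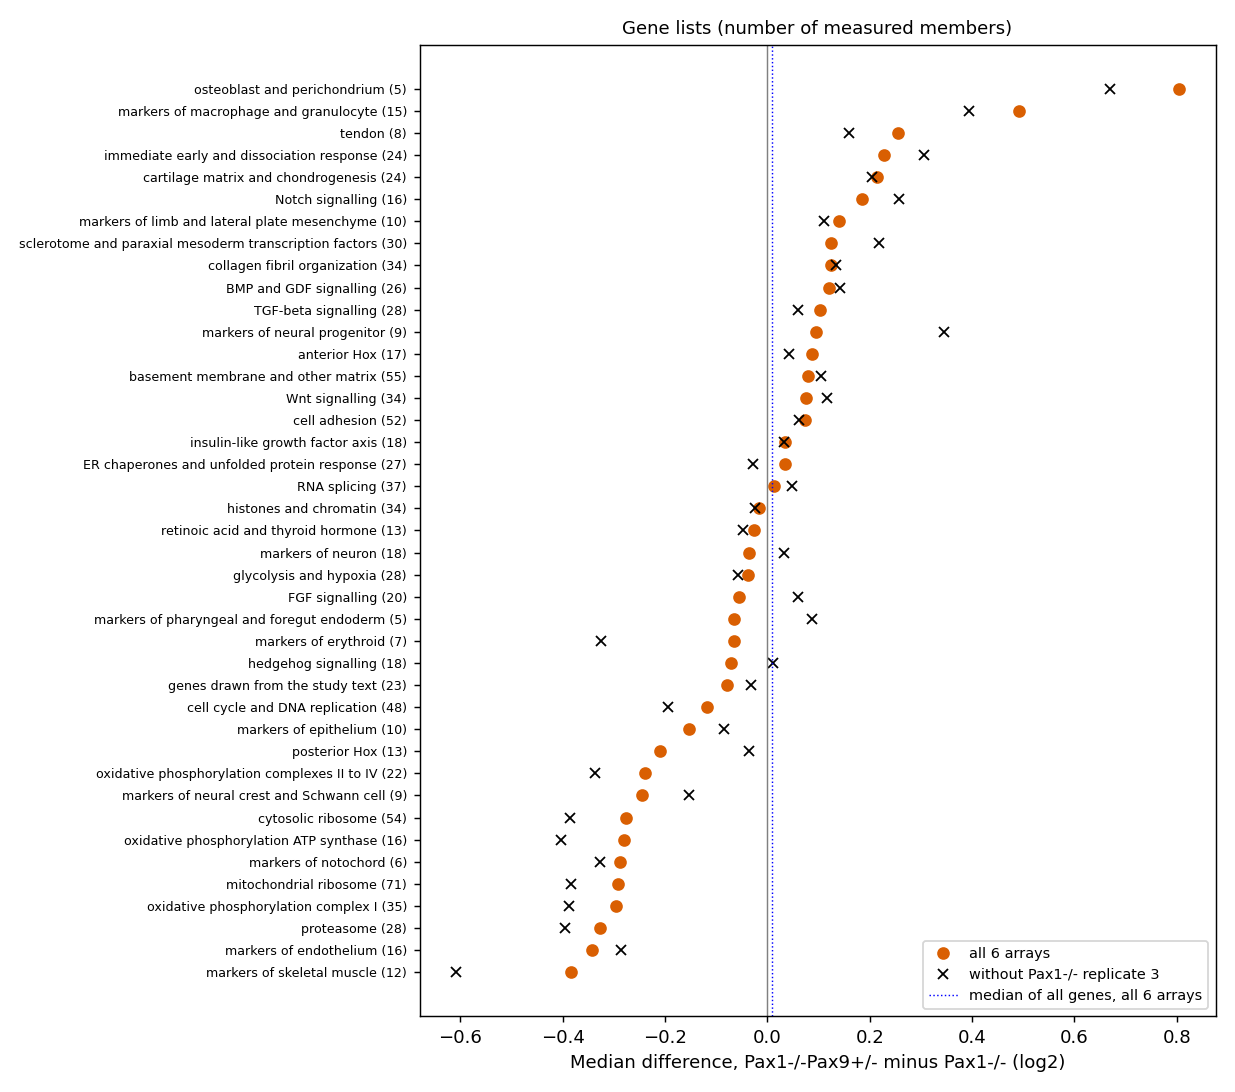
Median difference between Pax1-/-Pax9+/- and Pax1-/- cells (log2) over the measured members of each gene list, with all 6 arrays (circles) and without Pax1-/- replicate 3 (crosses); the dotted line is the median of all genes. The osteoblast list lies highest at 0.81 and the skeletal muscle markers lowest at -0.38.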

How the data were processed

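EGFP(+) cells were profiled on Illumina MouseWG-6 arrays (45281 probes) after NuGEN amplification. The authors deposited intensity values from BeadStudio, background-subtracted and not normalized, with a detection p-value per probe and array computed against 936 negative control probes, and a second table of deposited log2 values, quantile normalized in GeneSpring GX, which served as an alternative. No value column was left unmapped (0). In limma 3.58.1 (R 4.3.3, statmod 1.5.0) the intensities were corrected by normexp from the detection p-values (offset 16), quantile normalized over 28 arrays and log2 transformed. Probes with a detection p under 0.05 on at least 3 of the 6 arrays were kept (19900), and 16386 with 1 symbol (of 34885 probes with 1, 18 with several and 10378 with none) gave 10510 genes as probe means, 4039 of them from more than 1 probe. Gene names are those of the array annotation, of which 0 were updated. One linear model over the 11 arrays of chips 1 and 2 (residual df 7, prior df 3.57) gave empirical Bayes tests; the thresholds were 0.05 for the p adjusted after Benjamini and Hochberg over all genes and 1.5 for the fold, and the difference of the 2 steps at the adjusted p alone. The comparisons with chips 3 to 5 used all 25 EGFP(+) arrays. On simulated data with 10510 genes, 55% of changes of 1 and 94% of changes of 2 (log2) were recovered. There few genes were shifted, the spread was independent between genes and no array lay apart. These shares therefore need not hold for the measured arrays. The number of arrays limits the precision. The members and the gene lists were chosen with earlier results of these data known, and 37 of the 82 genes tabulated (such as Egr1, Matn4, Zic2, Phex, Uqcrh, Sh3bgrl3, Igf2, Cdh8 and Col16a1) were named after their values were seen. The rest follow a rule: Pax1, Pax9, 10 genes with the smallest p in each direction, and 23 genes the study's text names. The alternatives tried are given in the closing section.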

Additional observations from a re-analysis of the deposited data

Results flagged for a closer look

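The difference between Pax1-/-Pax9+/- and Pax1-/- cells and that between Pax1-/-Pax9-/- and Pax1-/-Pax9+/- cells were unlike, by a test of the first minus the second (log2), in Acan (3.41), Mia (1.94), Cdh8 (-2.69) and Cadps (-2.73). So were the fitted values of Asic3 (1.94), Syt1 (1.80) and Dera (-1.56), which are no sizes of change, since Asic3 and Syt1 were undetected in Pax1-/- cells and Dera in Pax1-/-Pax9+/- cells. Only the first difference crosses chips, so genotype and chip cannot be told apart in it, and Acan differed by 1.43 between the 2 WT groups. Acan alone passed this test without the Pax1-/-Pax9-/- array of replicate 1. Among the 5 Pax1-/- arrays of chips 3 to 5, a single array lay apart from the others in 6 of the 82 named genes, where chance marks about 1 in 20 groups, and some gaps were small. Replicate 1 was high for Syt1 (4.984, nearest 4.557), Matn2 (7.446, nearest 6.814) and Phex (8.004, nearest 5.922) and low for Ccn2 (10.74, nearest 11.39). Replicate 5 was high for Pomp (10.33, nearest 10.14) and replicate 2 low for Psmc5 (8.736, nearest 8.824).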

How the results depend on the processing

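The counts depended on the processing far more than the directions did. Against 1 gene higher and 0 lower with all arrays, normalizing over chips 1 and 2 only gave 2 higher, the deposited log2 values 3 higher, median centring 4 higher, no detection filter 2 higher and 2 lower, the study's kind of filter 2 and 1, trend and robust moderation 4 and 1, flooring signals at 1 gave 0 and 1, and detection in all 6 arrays, which leaves Fosb out, gave 0 higher. Array weights gave 158 higher and 221 lower, a fit over 25 arrays 70 and 154, an unadjusted p with the fold 382 and 483, the fold alone 512 and 605, and the methods' kind of test 153 and 173 unadjusted but 0 adjusted. With Pax1-/- arrays of chips 3 to 5 in place of chip 2 the counts were 1030 higher and 871 lower, with same-name arrays averaged over all chips 669 and 599, with chip as a random block 196 and 247, and with the barcode series as a fixed block 27 and 22. Leaving out 1 array gave 0 to 283 higher and 0 to 347 lower, both upper ends without Pax1-/- replicate 3.

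Genes whose 2 steps differed numbered 7, against 4 with floored signals, 2 with median centring, 4 normalized over chips 1 and 2 only, 0 without a detection filter, 3 detected in all 6 arrays, 3 under the study's filter, 2 with the brightest probe, 1 without the Pax1-/-Pax9-/- array of replicate 1 (added after seeing the data), and 1 to 20 without 1 array. Between the Pax1-/- arrays of chip 2 and chips 3 to 5 the count was 430, against 3178 with median centring, 207 with the deposited log2 values, 252 without a filter and 282 under the study's filter.

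With replicate numbers as a replicate block, 0 genes were higher and 0 lower; the groups share only numbers 2 and 3, whose deviations correlated at 0.0317 and -0.0343, so the numbers do not pair the samples. Of the 82 named genes only Fosb had a call to lose. It lost it in 6 of 23 settings, ran from 1.54 to 4.87 and passed in 17, with adjusted p from 3e-05 to 0.184, and Fos passed in 10 of 24. Of 1952 values of the named genes under alternatives, 278 gained a call and 39 changed sign without one. Median centring moved the median of all genes by 0.11. The medians of the respiratory chain, ribosome, proteasome, immediate early and cartilage lists kept their sign in all 24 settings. Over all lists, 89 of 1056 alternative medians changed sign. Most settings used the same 6 arrays, so a kept sign is not independent support. Genes near background limit what low signals can show.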
